A study of Danio rerio with 24 samples.

Results

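The comparison described here set primordial germ cells (PGCs) of smad1-cKO zebrafish embryos against PGCs of control embryos at 1 day post-fertilization (1 dpf). It used 6 of the 24 samples of the series, 3 smad1-cKO and 3 control libraries, chosen because they form the expression table of that experiment and stage. The smad1-cKO label marks embryos in which guide RNAs against smad1 were used. The control embryos are labelled WT and, in the DNA experiment of the same series, are described as siblings. Both groups were raised in Holtfreter's water, a salt solution for embryos, without further treatment, and both carried a transgene that gives PGCs a fluorescent protein by which they were sorted. The labels do not name the promoter or cell type in which the nuclease is made. They also do not say whether control PGCs carried the nuclease or the guides, so DNA cutting and loss of Smad1 cannot be told apart. No separate clutches are named, so p-values measure the spread between these samples, which may be technical. The smad1 gene was edited in part of the DNA. At the 15-somite stage, in DNA amplified from about 300 PGCs per group, 81.1%, 62.6% and 37.2% of reads at the 3 guide target regions were modified in the cKO, against 0.306%, 0.156% and 1.28% in controls, with 1 library per group.

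PGCs are set aside early in the zebrafish embryo by inherited germ plasm, migrate to the site of the future gonad, and remain a small, slowly dividing population for the first days. Bone morphogenetic protein (BMP) ligands bind receptor kinases that phosphorylate Smad1, Smad5 and Smad9 (also called Smad8), which enter the nucleus with Smad4 and switch target genes on or off. Cells respond to DNA damage and other stresses by inducing genes that halt the cell cycle, support repair or cause cell death. Expression is given as TPM, a share of each library's transcripts scaled by gene length. It holds no read depth, which is therefore not known here. Between 21330 and 22814 genes had a TPM above 0 in each library. Values of a group are listed in the order of replicates 1, 2 and 3.

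Germ cell markers were high in each library, whereas markers of other cells varied between libraries. The 8 germ cell markers summed to between 13083 and 20246 TPM in the cKO and between 14715 and 19065 TPM in controls. The 9 skin markers summed to 4270.3, 4931 and 257 TPM in the cKO, against 3015, 323 and 275 TPM in controls. Skin transcripts were thus high in the cKO of pairs 1 and 2 and in the control of pair 1, and close to each other in pair 3, where 2 of the 9 markers were at 0 in each library. Most of the sum in pair 3 came from epcam, at 234 TPM in the cKO and 264 TPM in the control. epcam had 223 to 420 TPM over all 6 libraries, with 231 TPM in the control of pair 2. The keratin gene krt4 had 1568, 1894 and 0.755 TPM in the cKO, against 1243, 47.1 and 1.01 TPM in controls. The 7 muscle markers summed to 459, 59.7 and 50.1 TPM in the cKO, against 46.9, 18.8 and 30.6 TPM in controls, and the 8 blood markers to 114, 40.3 and 3.55 TPM in the cKO, against 1.37, 4.24 and 0.0451 TPM in controls. Of the blood markers 2, 2 and 5 were at 0 in the cKO, against 6, 5 and 7 in controls. The 9 markers of yolk, endoderm and liver summed to 97.1, 141 and 2.87 TPM in the cKO, against 4.64, 6.92 and 15.4 TPM in controls. The longer list named for these tissues, which also holds cx43.4 and features of ctslb, summed to 667, 914 and 493 TPM in the cKO. In controls it summed to 504, 1921 and 503 TPM. The ctslb features had 307 to 424 TPM each in the second control and were at or near 0 in the other libraries. cx43.4 had 310 to 388 TPM in each library, so this sum need not follow the content of these tissues. The longer blood list summed to 327, 178 and 113 TPM in the cKO, against 78.3, 175 and 134 TPM in controls. Of its genes, urod had 43.1 to 82.7 TPM in each library and lmo2 had 95.1 TPM in the second control. The sum of this list therefore need not follow blood content. Neural markers summed to between 156 and 420.0 TPM in the cKO and between 193 and 506 TPM in controls, endothelium to between 2.82 and 19.8 TPM in the cKO and between 5.35 and 53.7 TPM in controls. Pigment and notochord markers were at or below 29.9 TPM in each library. In bulk samples fewer cells of a type and less RNA per cell cannot be told apart.

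**Figure D1:**
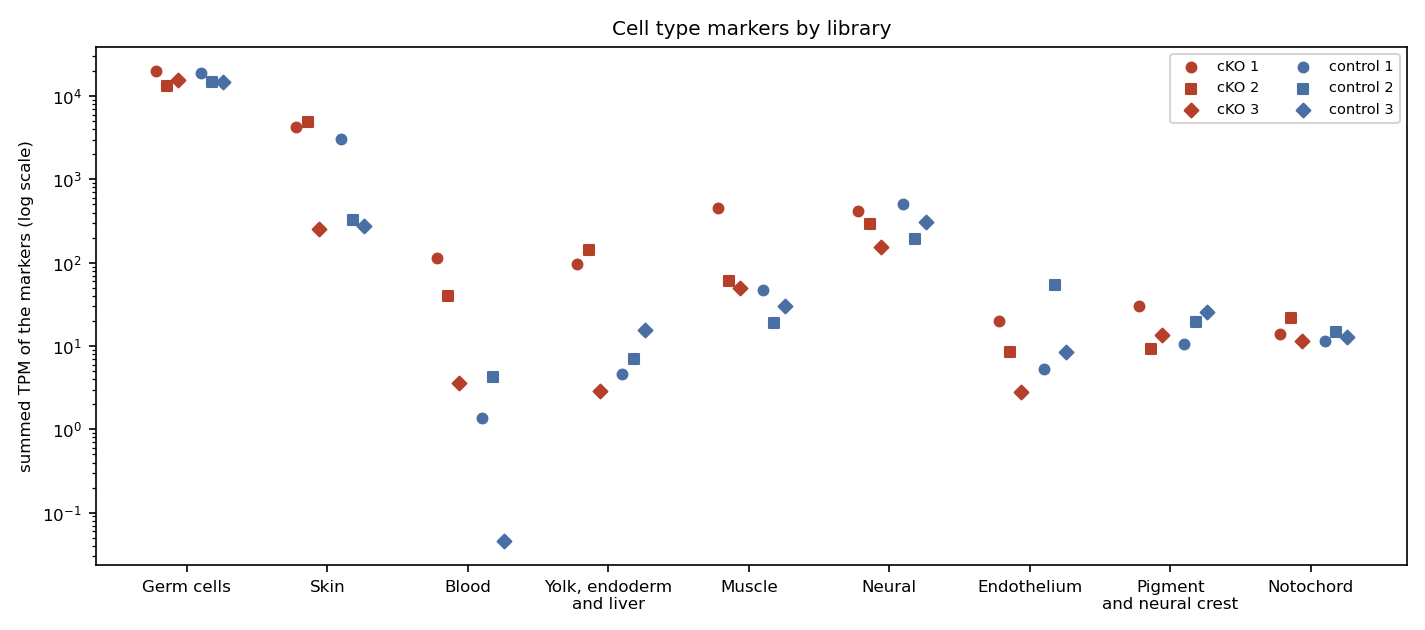
Summed TPM of the markers of 9 cell types in each smad1-cKO (red) and control (blue) library at 1 dpf, on a log scale; symbols mark the replicate number. Germ cell markers lie at or above 13083 TPM in all 6 libraries, and skin markers range from 257 to 4931 TPM in the cKO and from 275 to 3015 TPM in controls.

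The smad1 transcript was depleted in each cKO library. It had 16.4, 12.5 and 11.7 TPM in the cKO, against 140.0, 140.0 and 134 TPM in controls. The means were 13.5 ± 2.52 TPM in the cKO and 138 ± 3.30 TPM in controls (SD, n = 3 each), and the groups stood far apart. On the log2(TPM + 1) scale smad1 fell by 3.28 (SE 0.18, limma adjusted p = 0.00223), and it was also called in the fit without a replicate block, with an adjusted p of 0.000527. The other BMP-receptor Smads overlapped between the groups. smad9 had 122, 116 and 131 TPM in the cKO, against 137, 142 and 123 TPM in controls, a log2 difference of -0.12 (SE 0.14). smad5 had 29.3, 58.6 and 34.9 TPM in the cKO, against 31.7, 33.5 and 42.8 TPM in controls, a log2 difference of 0.13 (SE 0.24). Of 11 Smad genes tested, smad1 alone passed the test.

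Same-numbered cKO and control libraries deviated from their group means together, though weakly in pair 2, and were fitted as pairs. The correlation of these deviations was 0.265 and 0.272 in pairs 1 and 3 but 0.105 in pair 2. Over genes, cKO library 2 correlated no better with control 2 (0.913) than with control 1 (0.920). Of 17573 genes with a mean of at least 1 TPM, 14 passed an adjusted p of 0.05 (0.0797%). Of these, 12 rose in the cKO (0.0683%) and 2 fell (0.0114%). At an unadjusted p under 0.05 the counts were 863 higher (4.91%) and 692 lower (3.94%). Without the pairing no gene rose and 1 fell (0.00569%), with 3.73% of genes higher and 2.65% lower at an unadjusted p under 0.05. The calls also depended on the fit in other ways: without the intensity trend no gene was called, nor was any when low genes were kept, whereas a minimum of 5 TPM gave 57 higher and 4 lower genes, the 14 among them. The median log2 difference of all genes was -0.01. TPM is scaled to the same total in each library, so this does not compare RNA amounts between the groups. Leaving out pair 1, 2 or 3 gave 46, 51 or 28 higher and 9, 6 or 2 lower genes. All 14 calls were kept without pair 1 or pair 2, and 10 of them without pair 3, where pdcd4b, sesn3, suv39h1a and tnfaip6 were lost.

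**Figure D2:**
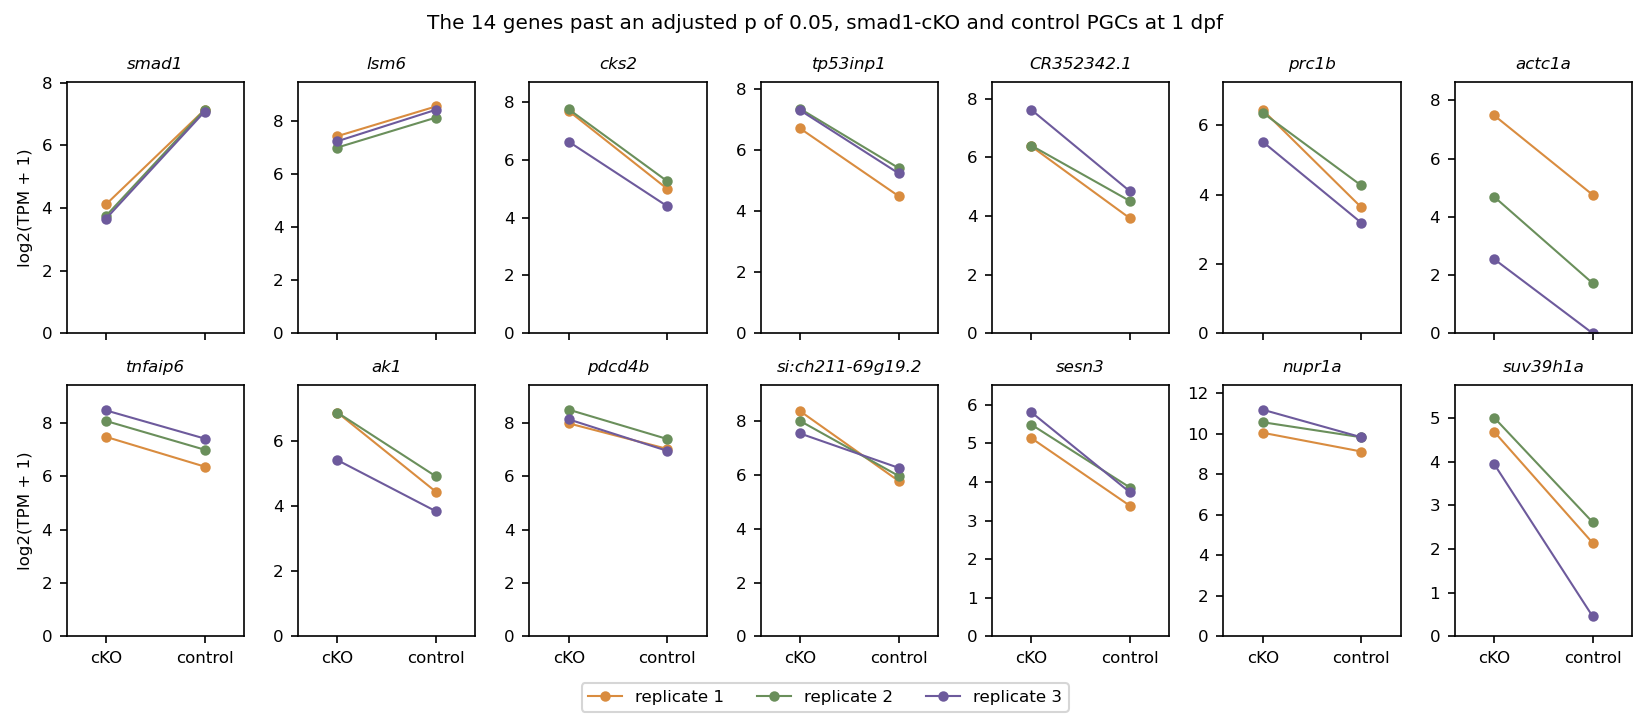
Expression in log2(TPM + 1) of the 14 genes past an adjusted p of 0.05, in smad1-cKO and control PGCs at 1 dpf, with a line joining libraries of the same replicate number. smad1 and lsm6 are lower in the cKO in each pair and the other 12 higher. The paired test favours genes whose lines run close to parallel.

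DNA damage and stress-response genes stood among the higher genes, and 17 of the 19 tested members of that list were above 0. The median member was higher by 0.80 on the log2 scale, beside -0.01 for all genes. Of these members 2 were called higher, beside 0.0683% of all genes. An unadjusted p under 0.05 in the higher direction was found for 12, beside 4.91% of all genes. In 11 of the 19 each cKO library lay above each control library, a pattern found in 5.66% of all genes. The members were chosen with earlier results of these data known, so these shares are not independent support. The called members were tp53inp1 and sesn3. tp53inp1, which encodes a stress-induced protein of autophagy and cell death, had 104, 164 and 158 TPM in the cKO, against 21.6, 41.8 and 37.0 TPM in controls. It rose 4.25-fold by the means, with a log2 difference of 2.08 (SE 0.15, limma adjusted p = 0.00686), and its groups did not overlap. sesn3 encodes a sestrin, a stress-induced restraint on mTORC1 growth signalling. It had 34.1, 43.8 and 54.9 TPM in the cKO, against 9.43, 13.5 and 12.3 TPM in controls, and rose by a log2 difference of 1.82 (SE 0.21, limma adjusted p = 0.0481). Again the groups were apart.

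Other members missed the threshold. ccng1, the cyclin G1 gene, induced by DNA damage, had 908, 1138 and 1739.5 TPM in the cKO, against 516, 794 and 979.8 TPM in controls. Its log2 difference of 0.72 (SE 0.09, limma adjusted p = 0.0507) was close in all pairs, although the groups overlapped. bbc3, which encodes the cell-death inducer Puma, had 18.7, 21.1 and 40.0 TPM in the cKO, against 4.91, 6.13 and 5.65 TPM in controls. Its groups were apart, with a log2 difference of 2.0 (SE 0.30, limma adjusted p = 0.0753). The remaining leading members did not pass the test either. rps27l, a stress-responsive ribosomal protein gene and the most abundant of the list, had means of 2142 ± 607 TPM in the cKO and 1196 ± 326 TPM in controls (SD, n = 3 each). casp8, the initiator caspase of death receptors, had 30.0, 50.05 and 71.7 TPM in the cKO, against 16.5, 15.3 and 18.6 TPM in controls. sesn1, a second sestrin gene, had 85.4, 83.4 and 85.7 TPM in the cKO, against 36.5, 52.7 and 39.2 TPM in controls. Both were apart between the groups.

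Of the further members given here, phlda3 had a smaller p than rps27l, casp8 and sesn1, and mdm2 and foxo3b a larger one. mdm2, which encodes a ubiquitin ligase induced by DNA damage, had 59.1, 72.7 and 134 TPM in the cKO, against 33.6, 52.7 and 60.4 TPM in controls, a log2 difference of 0.80 (SE 0.18), and its groups overlapped. phlda3, a stress-induced inhibitor of Akt signalling, had 243, 309 and 503 TPM in the cKO, against 54.4, 192 and 159 TPM in controls. foxo3b, a FoxO transcription factor gene, had 24.2, 18.5 and 49.5 TPM in the cKO, against 4.09, 11.4 and 9.60 TPM in controls. In phlda3 and foxo3b the groups were apart and the third cKO library was the highest of all 6. The members below 0 were mdm4 and sesn2, with log2 differences of -0.27 (SE 0.22) and -0.18 (SE 0.16). mdm2, mdm4 and sesn2 were chosen after their values were seen. The general apoptosis list, which shares bbc3, casp8 and others with the stress-response list, had 15 of its 28 members above 0 and a median of 0.04.

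**Figure D3:**
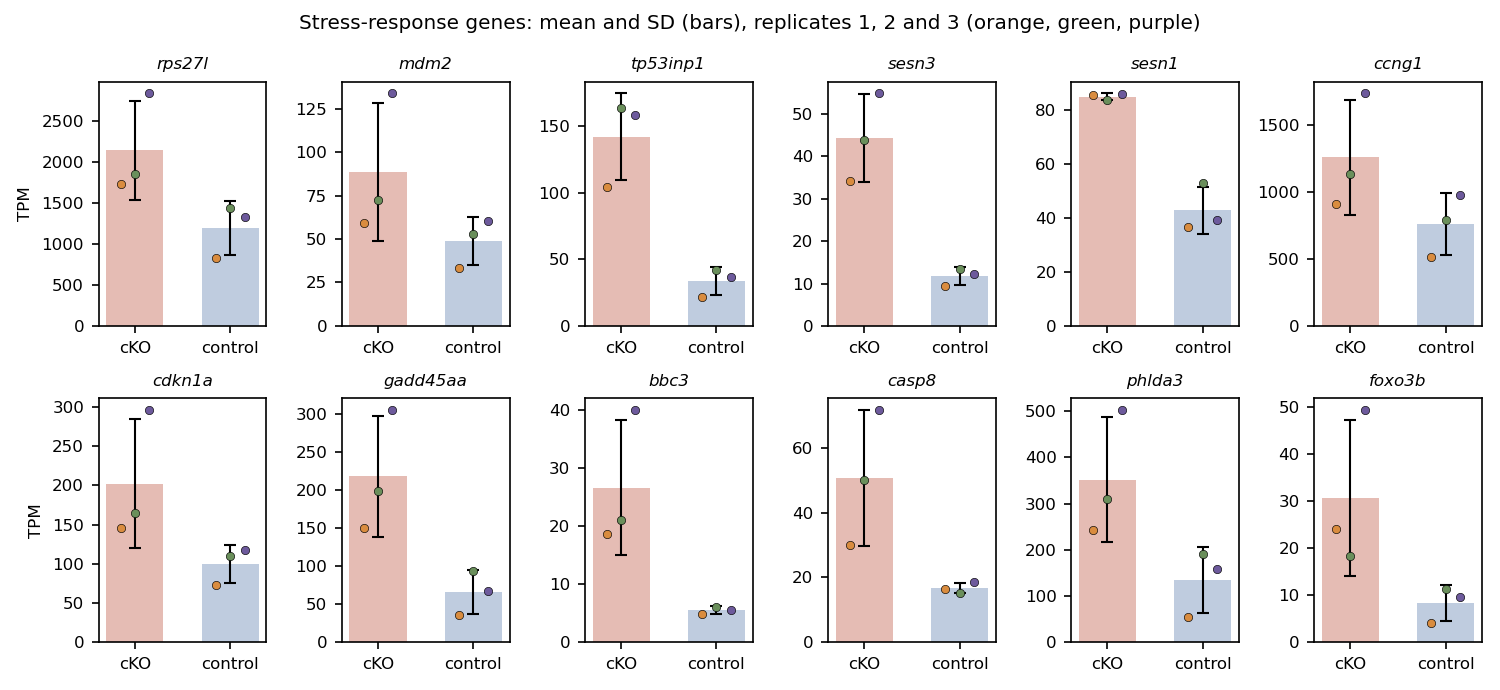
TPM of 12 stress-response genes in smad1-cKO and control PGCs at 1 dpf; bars are means, error bars SD over 3 libraries, and points single libraries. tp53inp1 averages 142 TPM in the cKO and 33.5 TPM in controls, and the third cKO library is the highest in most of the genes shown.

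Genes that brake the cell cycle were also mostly above 0, with 15 of 21 tested members above 0 and a median of 0.51. No member was called, beside 0.0797% of all genes. gadd45aa, a DNA-damage-inducible growth-arrest gene, had 150.1, 198 and 305 TPM in the cKO, against 36.3, 94.2 and 66.8 TPM in controls, a log2 difference of 1.75 (SE 0.22, limma adjusted p = 0.0507). cdkn1a, which encodes the stress-induced CDK inhibitor p21, had 145, 164 and 297 TPM in the cKO, against 72.6, 110.0 and 118 TPM in controls, a log2 difference of 0.96 (SE 0.16, limma adjusted p = 0.110). In both genes the groups were apart. cdkn2a/b, the zebrafish gene of the INK4 inhibitors, had 18.1, 49.6 and 87.2 TPM in the cKO, against 6.97, 12.2 and 29.4 TPM in controls, with a log2 difference of 1.58 (SE 0.22, limma adjusted p = 0.0616) and overlapping groups. btg1, an antiproliferative gene, had means of 123 ± 16.4 TPM in the cKO and 55.9 ± 14.7 TPM in controls (SD, n = 3 each). chek1, the checkpoint kinase that delays entry into mitosis, had 70.1, 69.0 and 37.8 TPM in the cKO, against 20.8, 28.2 and 26.5 TPM in controls. The most abundant CDK inhibitor genes, cdkn1ca and cdkn1bb of the Cip/Kip family, differed little, with log2 differences of -0.08 (SE 0.14) and -0.17 (SE 0.14). Members with an unadjusted p under 0.05 in the lower direction were gadd45ab and tob1b, chosen after their values were seen, at -0.63 (SE 0.22) and -0.40 (SE 0.16).

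Genes of mitosis were mostly above 0. Over the union of 5 lists (cyclins and CDKs, mitotic kinases, spindle and kinesins, kinetochore and checkpoint, cytokinesis), 83 of 87 tested members were above 0, with a median of 1.04. The lists are broader than their names: that of cytokinesis also holds kpna2, mki67, pttg1, espl1 and pif1. The list of cyclins and CDKs also holds wee1, wee2 and pkmyt1. Of the 87, 2 rose and none fell, beside 0.0683% of all genes called higher. An unadjusted p under 0.05 in the higher direction was found for 60 members, beside 4.91% of all genes. In 54 each cKO library lay above each control library, beside 5.66%. These lists too were chosen with earlier results of these data known, so the shares are not independent support. The other lists of mitosis shifted less: APC/C genes and their substrates had 15 of 20 above 0 and a median of 0.17, and genes of condensin, cohesin and mitotic chromatin 19 of 24 and a median of 0.31, with none called in either. cks2, a small subunit that CDKs need for full activity, had 206, 214 and 97.9 TPM in the cKO, against 30.9, 37.3 and 20.03 TPM in controls. It rose 5.87-fold by the means, with a log2 difference of 2.47 (SE 0.16, limma adjusted p = 0.00423). prc1b, which encodes a bundler of antiparallel microtubules in the central spindle, had 85.7, 81.1 and 45.0 TPM in the cKO, against 11.4, 18.2 and 8.11 TPM in controls, and rose by 2.41 (SE 0.22, limma adjusted p = 0.0179). In both genes the third library was the lowest of its group, in the cKO and in controls alike.

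Just outside the threshold, at an adjusted p of 0.0507 each, stood 3 more mitosis genes named by the rule. nusap1, a spindle microtubule protein gene, had 292, 227 and 155 TPM in the cKO, against 45.5, 57.5 and 65.9 TPM in controls. mad2l1, a sensor of unattached kinetochores, had 909.9, 729.6 and 389 TPM in the cKO, against 228, 199 and 211 TPM in controls. bub1ba, a checkpoint kinase-like gene, had 57.3, 40.0 and 24.2 TPM in the cKO, against 10.8, 9.44 and 7.19 TPM in controls. All 3 were apart between the groups, and in each the third cKO library was the lowest of the cKO. The kinase gene aurka, of spindle pole assembly, had 75.3, 58.0 and 33.4 TPM in the cKO, against 15.0, 13.6 and 15.0 TPM in controls, a log2 difference of 1.79 (SE 0.26, limma adjusted p = 0.0691). cdk1, the kinase that drives mitosis and the most abundant of its list, had 959, 922 and 714 TPM in the cKO, against 333, 496 and 487 TPM in controls, a log2 difference of 0.99 (SE 0.17). The members below 0 were cdca9, cdk2, mad1l1 and stmn1a. Of these, cdca9 differed most, with 7.99, 11.5 and 15.3 TPM in the cKO, against 22.7, 26.8 and 26.6 TPM in controls. cdca9, cdk2 and mad1l1 were chosen after their values were seen.

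The pairs did not contribute alike, and the stress-response and the mitosis genes were ordered differently among them. The mitosis members had a median log2 difference of 1.35 in pair 1, 1.1 in pair 2 and 0.42 in pair 3, with 81, 83 and 70 of 87 above 0. The stress-response list had medians of 0.83, 0.58 and 0.92 in pairs 1, 2 and 3, with 16, 18 and 15 of 19 above 0. Genes of DNA replication, which act in S phase, had a median of 0.17 over the pairs, with 44 of 56 above 0. None of them was called, beside 0.0797% of all genes. Their medians were 0.22 and 0.50 in pairs 1 and 2 and -0.21 in pair 3, where 16 of 56 were above 0. pcna, the replication clamp and the most abundant of them, had 729, 655 and 479 TPM in the cKO, against 563, 303 and 525 TPM in controls, and overlapped. Of 28 G1/S cyclins and transcription regulators of the cell cycle (E2F, DREAM and MYB-MuvB) 17 were above 0, with a median of 0.10. The cause of the difference between the pairs was not tested.

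Marker lists of other cell types also differed between the pairs. Of 27 skin markers 25 were above 0, with a median of 1.46, above the medians of the mitosis and stress-response genes, and their medians were 0.58, 4.04 and 0 in pairs 1, 2 and 3. Of 16 blood markers 13 were above 0, with a median of 1.19 and medians of 1.85, 1.72 and -0.04 in the pairs. The endoderm, yolk and liver list had 16 of 23 above 0 and a median of 0.49, with the ctslb features among those below 0. Muscle markers had 20 of 25 above 0 and a median of 0.54. The part of these marker lists in the higher values of mitosis and stress-response genes was not tested. Some mitosis members had next to no difference in pair 3. ccnb1, which encodes cyclin B1 and was chosen after its values were seen, had 219.6, 138 and 74.7 TPM in the cKO, against 64.0, 50.3 and 73.3 TPM in controls, so its groups were apart but nearly met in pair 3.

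**Figure D4:**
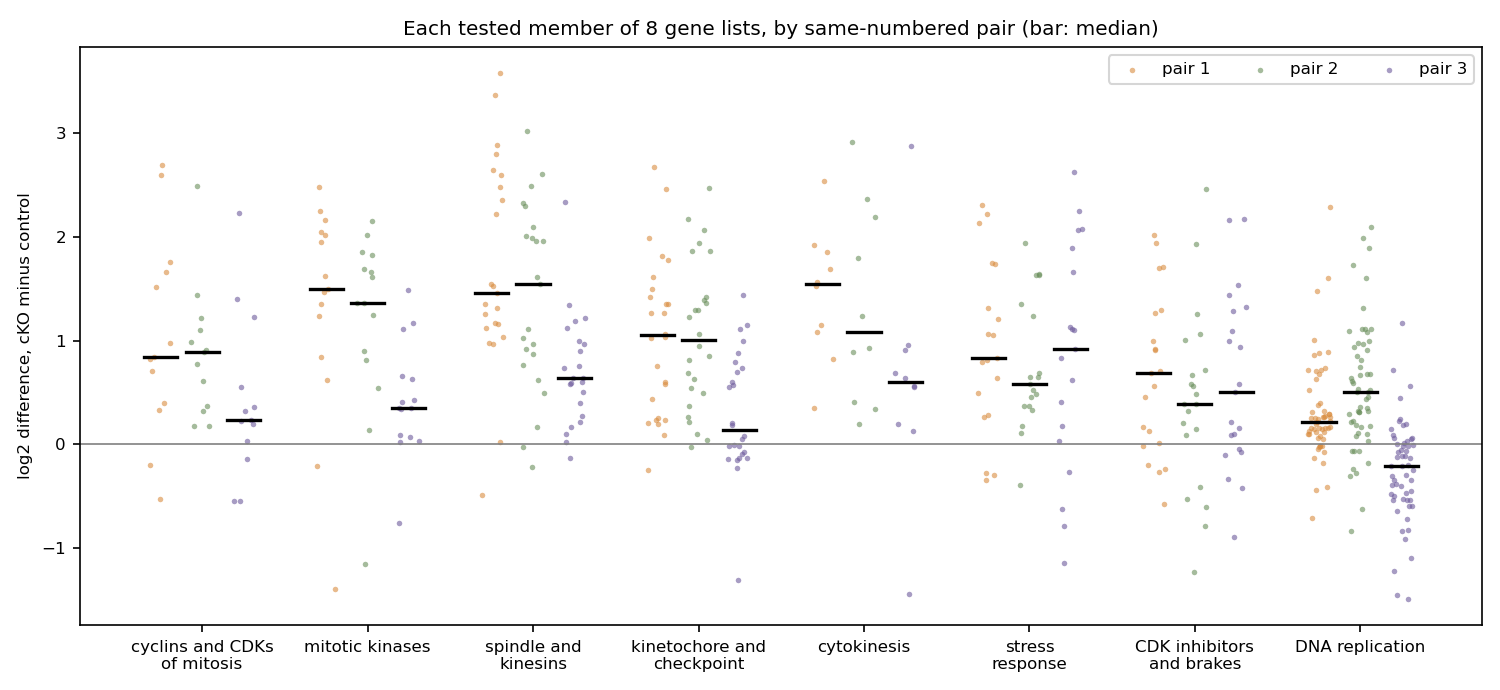
Log2 difference of cKO minus control for each tested member of 8 gene lists, shown separately for same-numbered pairs 1, 2 and 3; points are genes and bars medians. The mitosis lists lie lowest in pair 3, where DNA replication has a median of -0.21, while the stress-response list has its highest median, 0.92, in pair 3.

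Of the other called genes that rose, actc1a is a muscle marker and the rest belong to no list. nupr1a, a small chromatin protein gene induced by many stresses, was the most abundant, with 1064, 1528 and 2346 TPM in the cKO, against 559.9, 912 and 913 TPM in controls, a log2 difference of 1.01 (SE 0.12, limma adjusted p = 0.0481). pdcd4b, related to a tumour suppressor that restrains translation, had 250.3, 358 and 278 TPM in the cKO, against 128, 166 and 122 TPM in controls, a log2 difference of 1.08 (SE 0.12, limma adjusted p = 0.0309). tnfaip6, which in mammals encodes a secreted hyaluronan-binding protein of inflammation, had 177, 267 and 352 TPM in the cKO, against 81.2, 126 and 169 TPM in controls. Its log2 differences were 1.11, 1.08 and 1.05 in pairs 1, 2 and 3. suv39h1a, a histone H3 lysine methyltransferase gene of heterochromatin, had 24.7, 31.2 and 14.4 TPM in the cKO, against 3.41, 5.12 and 0.376 TPM in controls, a log2 difference of 2.81 (SE 0.33, limma adjusted p = 0.0481). ak1, which encodes an adenylate kinase of energy balance, had 117, 117 and 41.8 TPM in the cKO, against 20.8, 29.2 and 13.4 TPM in controls. The groups of these 5 genes did not overlap. The features CR352342.1 and si:ch211-69g19.2, for which the tables give no function, rose by 2.37 (SE 0.21, limma adjusted p = 0.0179) and 1.97 (SE 0.23, limma adjusted p = 0.0481). CR352342.1 had 81.7, 83.2 and 195 TPM in the cKO, against 14.1, 21.7 and 27.6 TPM in controls.

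actc1a, a cardiac and skeletal muscle actin gene, was also called, and here the libraries of a group differed widely. It had 179, 24.8 and 4.85 TPM in the cKO, against 26.05, 2.296 and 0 TPM in controls, so the groups overlapped although each pair pointed the same way. The summed muscle markers were also highest in the first cKO library, and their part in this call was not tested. The symbol is used by a second gene ID, which was not called, so reads may be split between them.

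Besides smad1, lsm6 was the other gene that fell. It encodes a subunit of the Lsm ring that binds U6 small nuclear RNA and, in the cytoplasm, takes part in mRNA decay. lsm6 had 172, 127 and 150.4 TPM in the cKO, against 375, 279.9 and 344 TPM in controls, and fell by 1.15 on the log2 scale (SE 0.11, limma adjusted p = 0.0212). The groups were apart, and the pairs gave -1.12, -1.13 and -1.19. The other Lsm and Sm ring genes did not share that size: 22 of the 31 tested, lsm6 included, were below 0 and their median was -0.11. mmaa, which encodes a chaperone of cobalamin-dependent methylmalonyl-CoA mutase in mitochondria, had 14.2, 17.3 and 12.7 TPM in the cKO, against 40.7, 46.2 and 53.4 TPM in controls. Its log2 difference of -1.60 (SE 0.22) was the largest of the 14 cobalamin and propionate genes tested and missed the threshold, with an adjusted p of 0.0582 in limma. psme1, a subunit of the proteasome activator, had 56.9, 58.5 and 75.3 TPM in the cKO, against 113, 132 and 151 TPM in controls, with an adjusted p of 0.0551 in limma.

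lsm6 and mmaa are neighbours of smad1 on chromosome 1. In the gene order of the RefSeq table of assembly GRCz12tu, used for order only because the authors' build was GRCz11, mmaa is the first and lsm6 the third tested gene after smad1. By symbol 13787 of the 17573 tested genes could be placed in that order (78.5%). Of the 20 tested genes nearest to smad1, 10 on each side, 19 were below 0 and their median log2 difference was -0.72. In 10 of the 20 each cKO library lay below each control library, a pattern found in 5.78% of all genes, and 14 of the 20 were lower in all 3 pairs, against 16% of all genes. The neighbours were examined after the values of lsm6 and mmaa were seen.

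Single neighbours show the size of the shift. hhip, the gene just before smad1 and in vertebrates an inhibitor of Hedgehog ligands, had 2.52, 1.26 and 1.65 TPM in the cKO, against 6.47, 4.67 and 5.64 TPM in controls. gab1, next to it and an adaptor of receptor tyrosine kinases, had 5.01, 4.57 and 5.74 TPM in the cKO, against 7.27, 14.4 and 11.7 TPM in controls. znf827, a zinc finger gene between mmaa and lsm6, had 2.43, 2.02 and 2.82 TPM in the cKO, against 8.88, 10.3 and 4.38 TPM in controls. None of these 3 passed the test, and in each the groups were apart. gpalpp1, 6 tested genes before smad1, had 48.1, 50.4 and 50.1 TPM in the cKO, against 85.9, 87.0 and 106 TPM in controls, a log2 difference of -0.89 (SE 0.15, limma adjusted p = 0.111). tpt1, a highly expressed gene of translationally controlled tumour protein 4 places before smad1, had 896, 919.7 and 783 TPM in the cKO, against 1185, 1101 and 1041 TPM in controls. The exception was galnt7, the tenth gene after smad1, at 0.08 (SE 0.09).

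The shift was largest close to smad1 but did not shrink steadily with distance. At 11 to 25 tested genes from it 22 of 30 were below 0, with a median of -0.24, and at 26 to 50 genes 37 of 50, with a median of -0.14. At 51 to 100 genes 73 of 100 were below 0, with a median of -0.21. Over 100 genes before smad1 the median was -0.01, over 100 genes after it -0.10, and on all other chromosomes -0.01. With smad1 left out, chromosome 1 had the lowest median of the 25 chromosomes, -0.11 over 615 genes, followed by chromosome 20 at -0.04. When each chromosome was divided into stretches of 20 tested genes, the one around smad1 had the lowest median of 680 stretches, -0.49, with all 20 genes below 0. The next lowest stood at -0.37 and the highest at 0.33. Some later stretches of chromosome 1 were also among the lower ones, at -0.30, -0.27 and -0.24.

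The same neighbours were looked up in the other experiments of the series. At 75% epiboly, a gastrula stage with 3 cKO and 3 control libraries, 12 of the 18 neighbours tested were below 0 in smad1-cKO PGCs. Their median was -0.16, beside -0.04 for all genes there, of which 7141 of 16567 were above 0. In the knockdown (KD) at 1 dpf, in which 2 libraries of embryos injected with a smad1 morpholino, an antisense oligo that does not cut DNA, were set against 2 of embryos injected with a control morpholino, 13 of 20 were below 0, with a median of -0.22 beside -0.37 for all genes of that comparison. For lsm6 the log2 difference was -1.15 in the cKO at 1 dpf, -0.42 in the cKO at 75% epiboly and 0.11 in the KD. For mmaa the values were -1.60, 0.15 and -0.17. The differences from the KD (limma adjusted p = 0.233 for lsm6 and 0.337 for mmaa) and from 75% epiboly (limma adjusted p = 0.656 and 0.610) did not pass the test. The cause of the lower values around smad1 was not tested.

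**Figure D5:**
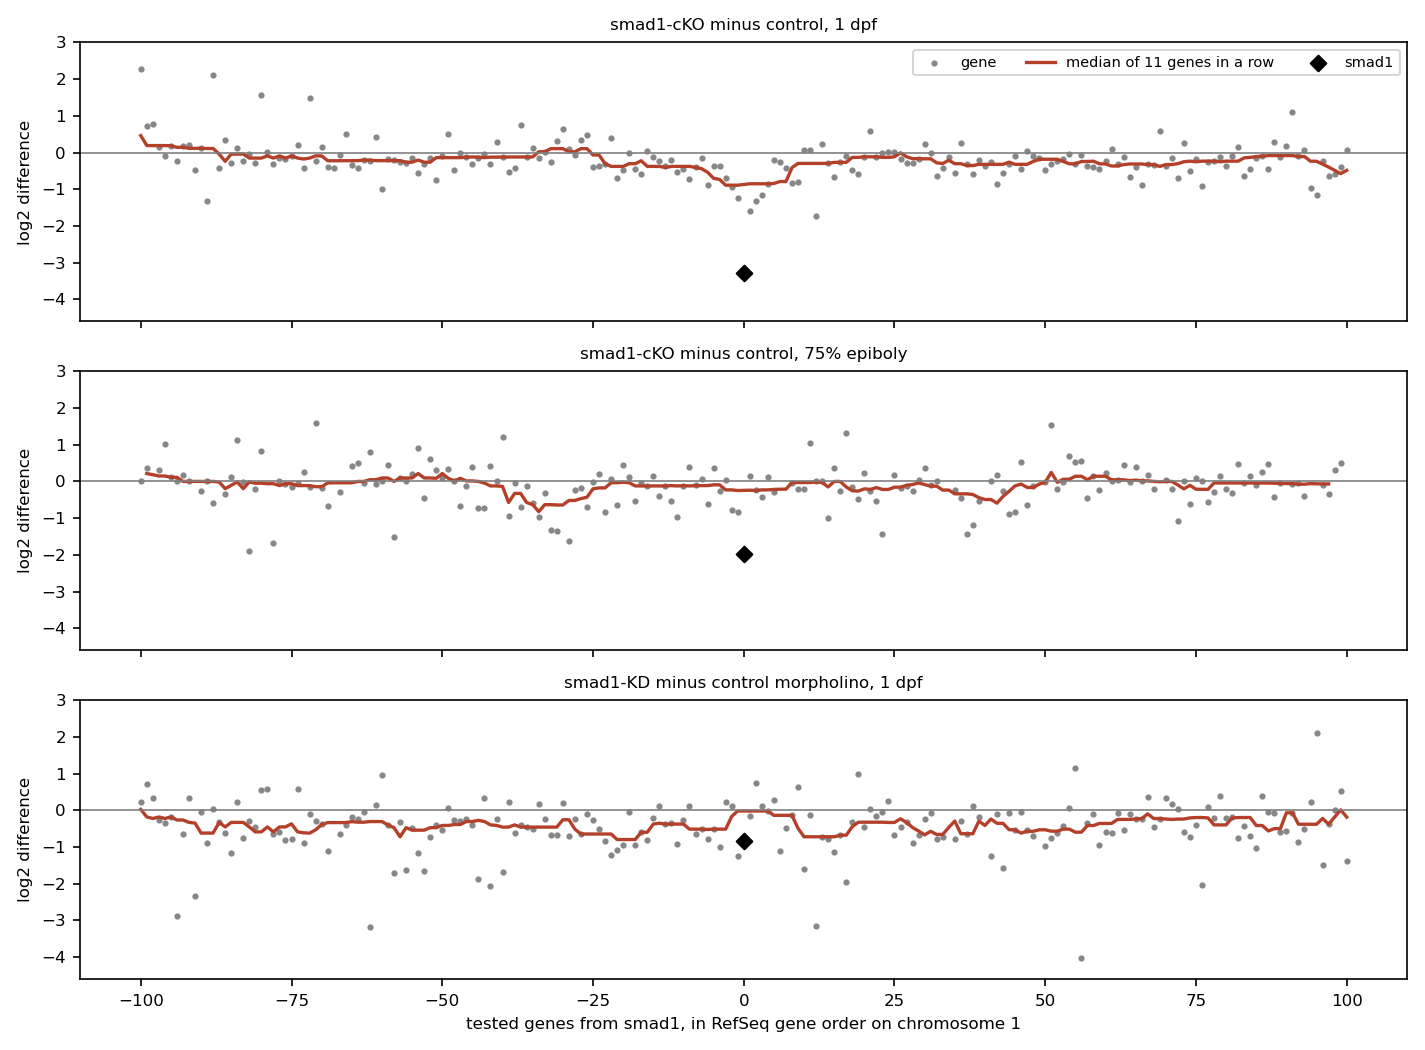
Log2 difference of tested genes up to 100 places from smad1 in gene order on chromosome 1, for the smad1-cKO at 1 dpf (top), the smad1-cKO at 75% epiboly (middle) and the smad1-KD at 1 dpf (bottom); points are genes, the line is the running median of up to 11 genes in a row and the diamond is smad1. In the top panel the line dips around smad1, where 19 of the nearest 20 genes lie below 0.

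The other lower genes named by the rule did not pass the test. spcs3, a subunit of the signal peptidase and 18 tested genes after smad1, had 379, 411 and 399.9 TPM in the cKO, against 503, 574 and 564 TPM in controls. ufc1, the conjugating enzyme of the ubiquitin-like modifier UFM1, had 168, 139 and 151 TPM in the cKO, against 234, 223 and 225 TPM in controls. cox6b1, a subunit of cytochrome c oxidase, had 188, 119 and 188 TPM in the cKO, against 348, 209 and 257 TPM in controls. The list of nuclear oxidative phosphorylation genes was also chosen with earlier results of these data known. Of its 81 genes tested, 67 were below 0, but the median was only -0.11 and none was called. An unadjusted p under 0.05 in the lower direction was found for 9, beside 3.94% of all genes. In the higher direction it was found for sdhda, at 0.67 (SE 0.23), and ndufs8b, at 0.53 (SE 0.22), the latter chosen after its values were seen. Cytosolic ribosomal protein genes were centred on 0, with 34 of 77 above it and a median of -0.01.

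Apart from smad1, no gene of the BMP pathway lists was called, beside 0.0797% of all genes called in either direction. Lists this short seldom hold a call at that share, so the lack of calls does not show an unchanged pathway. Of 27 BMP target genes 16 were above 0, with a median of 0.10 and none called. id1, the most abundant of these targets and a repressor of bHLH factors, had 627, 597 and 693 TPM in the cKO, against 709.8, 466 and 919 TPM in controls, and id3 had 112, 136 and 86.1 TPM in the cKO, against 92.7, 96.2 and 117 TPM in controls. Both overlapped, with log2 differences of -0.08 (SE 0.14) and 0.11 (SE 0.19). The target with the smallest p was foxi1, a forkhead gene of ectoderm and ionocytes, with 54.6, 54.7 and 130.0 TPM in the cKO, against 7.94, 27.5 and 19.5 TPM in controls, a log2 difference of 2.09 (SE 0.34, limma adjusted p = 0.0944). ved, a ventral homeobox repressor gene, had 209, 115 and 197 TPM in the cKO, against 139, 66.4 and 125 TPM in controls, higher in each pair with overlapping groups. The BMP ligand list, which also holds genes of related ligands such as inha, inhbb and gdf11, had 9 of 15 above 0 and a median of 0.16. The receptor list, with acvr1ba and acvr1bb among its members, had 10 of 18 above 0 and a median of 0.01. The antagonist list, which also holds the protease gene bmp1a, had 10 of 15 above 0 and a median of 0.27. bmp2a, a ligand gene, had 7.39, 14.7 and 19.98 TPM in the cKO, against 16.1, 30.4 and 32.2 TPM in controls, a log2 difference of -0.90 (SE 0.23, limma adjusted p = 0.302).

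Genes of germ cell fate and germ plasm were centred near 0 as a list. The lists given next held no called gene, beside 0.0797% of all genes called, a share at which short lists seldom hold one. nanos3, the translational repressor that PGCs need to survive, had 15149, 10189 and 12122 TPM in the cKO, against 14574, 11592 and 11918 TPM in controls. dnd1, which protects germ-line RNAs from microRNAs, had 1093, 868 and 553 TPM in the cKO, against 968, 834 and 456 TPM in controls. Of 31 genes of germ cell fate and germ plasm 15 were above 0, with a median of 0.00 and none called. The members with the smallest p were lin28a, an RNA-binding repressor of let-7, at 0.53 (SE 0.17), and dazl, a germ-line translational regulator, at -0.33 (SE 0.12). Their adjusted p in limma was 0.422 and 0.481. In dazl each cKO library lay below each control library. The piRNA pathway, which silences transposons, had 6 of 23 members above 0 and a median of -0.13, with none called. Genes of chemokine guidance and migration had 32 of 45 above 0 and a median of 0.16, with none called. Maternal transcripts that somatic cells clear had 10 of 19 above 0 and a median of 0.04.

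Both gene groups were set beside the cKO at 75% epiboly and the KD at 1 dpf, whose control libraries are their own. The lists of both groups were chosen with earlier results of these data known. Of the stress-response members 2 of 18 were above 0 in the cKO at 75% epiboly, with a median of -0.34, beside -0.04 for all genes there. In the KD at 1 dpf 12 of 19 were above 0, with a median of 0.38, beside -0.37 for all genes of that comparison. mdm2 had a log2 difference of 0.80 in the cKO at 1 dpf, -0.07 in the cKO at 75% epiboly and 1.65 in the KD. sesn3 had 1.82, -0.16 and 1.48. For the stress-response list no difference of the cKO from the KD reached an unadjusted p of 0.05, with only 2 libraries per group in the KD experiment. For the difference from the cKO at 75% epiboly 7 of 18 members did, beside 1038 of 16567 genes, and none was called.

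The mitosis genes gave another picture. Of 87 members 32 were above 0 in the cKO at 75% epiboly, with a median of -0.07, and 6 in the KD at 1 dpf, with a median of -0.54. Over all genes the medians were -0.04 at 75% epiboly and -0.37 in the KD, where 4146 of 17965 genes were above 0. Markers of other cells also differed in the KD: 0 of 28 muscle markers were above 0, with a median of -2.68, notochord markers had a median of -1.22, neural crest and pigment markers 1.56 and blood markers 1.05. Their part in the KD values was not tested. cks2 had a log2 difference of 2.47 in the cKO at 1 dpf, -0.04 in the cKO at 75% epiboly and -0.65 in the KD. nusap1 had 1.94, -0.15 and -1.32. Tested for a difference of cKO from KD effects, these 2 members had the smallest adjusted p, 0.0872 in limma, and 58 of the 87 members had an unadjusted p under 0.05. For the difference from the cKO at 75% epiboly 41 of the 87 had an unadjusted p under 0.05, and none was called. Over all genes the paired fit called no gene as different in cKO and KD (0%), with 1760 of 17965 at an unadjusted p under 0.05, and none between the stages (0%), with 1038 of 16567. The fit without pairs called 32 genes as higher in the cKO than in the KD and 1 as lower. The difference with the smallest p between the stages was that of prc1b, 2.41 at 1 dpf and -0.66 at 75% epiboly (limma adjusted p = 0.585). Between the cKO and the KD it was that of BX465834.1, a feature without known function, at 0.41 in the cKO and -4.00 in the KD (limma adjusted p = 0.0540), and the BMP target ved was the sixth, at 0.67 and -2.47 with the same adjusted p.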

How the data were processed

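PGCs were sorted by fluorescence, and full-length cDNA was amplified and made into libraries with a transposase, per the labels' protocols. The TPM values per gene were deposited by the authors. Per the submitters' processing notes, the tools were StringTie 2.2.1 and STAR 2.7.10b and the build was GRCz11. TPM keeps no depth, so no counting error can be given for expression. The read counts of modified and aligned amplicons were also deposited by the authors, and their intervals (95%, exact Clopper-Pearson) cover counting error only, not molecules: 80.9% to 81.3%, 62.5% to 62.8% and 36.9% to 37.5% in the cKO.

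The TPM table had 32520 genes, of which 17573 with a mean of at least 1 TPM over the 6 libraries were tested. log2(TPM + 1) values were fitted in limma 3.58.1 (R 4.3.3) with an intensity trend and the replicate number as a block, and p-values were Benjamini-Hochberg adjusted over all tested genes. Fold changes on this scale understate those of low genes. Same-numbered libraries were treated as pairs by the rule of this comparison. Their deviations, looked at as a check, had correlations of 0.265, 0.105 and 0.272, against -0.292 to 0.0646 for other numbers. The deviations of a group cancel out for each gene, so positive same-number values push the others down. The contrast between them is therefore partly built in and is a weak check of the pairing. The differences from the KD and from 75% epiboly were interactions over both tables, which were not compared for levels. The fit was also run on simulated data. These were built with the same pairs and with normal noise of the spread that the fit had estimated. The simulation therefore cannot check the pairing or the spread.

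The members and the 35 gene lists were chosen with earlier results of these data known. A stress-response gene was left out of its list and is not reported here. Named genes are the Smads that BMP receptors activate, the called genes, the 12 per direction with the smallest p among genes with groups apart and a mean of at least 5 TPM, up to 5 members by p and 3 by TPM of each list, and 6 per difference by p. Gene symbols came from the given name tables and gene order from RefSeq, assembly GRCz12tu.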

Additional observations from a re-analysis of the deposited data

How the results depend on the processing

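The number of called genes depended on the processing. Directions were followed only for the genes named here. Many of these were chosen by small p in the same libraries, so their directions say little about other genes. The main fit called 12 genes higher and 2 lower. Without the pairing (no replicate block) 0 were higher and 1 lower, with smad1 the gene kept. With all genes kept and with no intensity trend 0 were higher and 0 lower. A minimum of 5 TPM gave 57 and 4, array weights 37 and 4, and quantile normalization 20 higher, each with all 14 genes among its calls. Leaving out a pair gave 28 to 51 higher and 2 to 9 lower genes. Leaving out pair 3 ended the calls of pdcd4b, sesn3, suv39h1a and tnfaip6, and a pseudocount of 0.1 those of actc1a, nupr1a, sesn3, si:ch211-69g19.2 and suv39h1a, while leaving out pair 1 or pair 2 kept all 14. With 1 library left out and no pairing, 0 to 45 were higher and 1 to 2 lower, the 45 without the third cKO library. Differences from the KD were 0 in the main fit, 18 higher with a pseudocount of 0.1, 28 higher with a minimum of 5 TPM, and 32 higher and 1 lower without the pairing. No setting run called a difference from 75% epiboly. Of 666 list medians 604 stayed within the spread of the pairs, the SD of the 3 pair medians, and 62 moved. Leaving out the replicate block or the intensity trend does not change any log2 difference, so those medians could not move. The 604 is therefore not a measure of how stable the medians were.

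Small differences changed sign in some fits, mostly with libraries left out. Over the fits that leave out 1 pair, cdk2 ranged over -0.17 to 0.016, cdkn1ca over -0.23 to 0.091, id1 over -0.29 to 0.088, id3 over -0.084 to 0.38, mad1l1 over -0.065 to 0.030, nanos3 over -0.081 to 0.040 and smad5 over -0.20 to 0.34. Array weights gave mad1l1 0.0072. Without the pairing, leaving out 1 cKO library gave cdkn1ca 0.0071, dnd1 -0.049, galnt7 -0.034, id3 -0.046, mad1l1 0.031, nanos3 0.10, sesn2 0.0076 and smad5 -0.15. Leaving out 1 control library gave cdk2 0.044, cdkn1ca 0.0022, dnd1 -0.16, id1 0.15, mad1l1 0.034 and nanos3 0.068. The 20 genes nearest to smad1, an alternative added after the data were seen, kept 16 to 19 members below 0 in the settings that tested all of them.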
